A study of Mus musculus with 21 samples.

Results

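The data described here are 10 of 21 RNA-seq libraries of the ventral hypothalamus (VH), all from mice that had no diet switch (NoDS). They were chosen by sample name, and comprise 5 libraries of mice kept on a high-fat diet (HFD NoDS, replicates 19, 20, 21, 23 and 24) and 5 of mice kept on regular chow (RC NoDS, replicates 1, 2, 3, 5 and 6). All mice were wild-type C57BL/6J males that arrived at 12 to 14 weeks of age and ate their diet for 7 to 9 weeks in groups, then singly housed until collection. On day 7 after the other mice of the study had their diets switched, all were kept awake with unfamiliar objects for 3 hours from ZT3 (3 hours after lights-on) and killed near ZT6. Each library holds polyA-selected RNA from punches of 2 mice pooled in equal parts, so the spread between libraries is that between pools and is not the spread between animals. The authors had kept only punches in which the arcuate genes Agrp and Pomc well exceeded the lateral hypothalamic gene Hcrt. The question put to these libraries was which genes differ between mice at a stable weight on HFD and on RC.

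Reads are counts of single-end 100-base sequences assigned to a gene, after the authors had re-sampled all libraries to a common depth. Totals ran from 16383073 to 16390286 reads per library in RC NoDS and from 16380781 to 16389102 in HFD NoDS, so reads of a gene can be set side by side. Of 21654 genes in the table, 12768 averaged 50 or more reads over the 21 libraries and were tested, and they held 99.6% of all reads. Fold changes, standard errors (SE) and p-values are from edgeR's quasi-likelihood test with a mean for each of the 4 diet groups, a positive log2 fold change is higher in HFD NoDS, and a gene was called where the Benjamini-Hochberg adjusted p over all genes tested was under 0.15. Gene positions are those of the mm9 mouse genome.

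The ventral hypothalamus senses hormones and nutrients that reach it from the blood. In its arcuate nucleus, neurons that make Agrp and Npy drive feeding, and neurons that make Pomc and Cartpt restrain it. Leptin from fat acts on these neurons through its receptor and the transcription factor Stat3, and astrocytes and microglia around them are known to respond to diets rich in fat.

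Markers of the nuclei aimed at were present. All 13 arcuate markers on the list used passed the filter of 50 reads, as did 8 of 9 of the ventromedial nucleus and 5 of 7 of the paraventricular nucleus. Arcuate markers summed to between 18650 and 26143 reads per library in RC NoDS and between 21010 and 28529 in HFD NoDS, and Pomc was the most abundant. Of the 13, 9 were lower and 4 higher in HFD NoDS, with a median log2 fold change of −0.14 (−0.19 to −0.01 over the alternatives described below). Of 7 markers of hippocampus, cortex and amygdala only 2 passed, and their list summed to at most 674 reads in an RC NoDS library and 753 in an HFD NoDS library. Of 7 lymphocyte markers only Ptprc passed. Markers of neighbouring regions passed too (6 of 6 thalamic, 6 of 7 striatal, 5 of 6 dorsomedial and 5 of 8 suprachiasmatic), some of which, such as Penk and Avp, are shared between regions. Markers of the paraventricular nucleus, with Avp the most abundant, summed to between 7414 and 28170 reads in RC NoDS and between 5814 and 32717 in HFD NoDS.

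Between stable HFD and stable RC, 10 genes were called (0.0783% of the genes tested). In HFD NoDS, 8 rose (0.0627%) and 2 fell (0.0157%). The genes that rose were the peptide genes Trh, Cartpt and Hcrt, along with Serpina3n, C4b, Sbno2, Stat3 and Clu. The call of Hcrt was the least steady, as it held in 10 of 21 alternatives. The genes that fell were Npy and Agrp. DESeq2 called 17 genes, among which were all 10, and added Pcdh20, Ghsr, Lars, Ccnd1, Accn4 and Socs3 among the genes named here. Leaving out RC NoDS replicate 1 reduced the number called to 5, all of them among the 10.

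**Figure D1:**
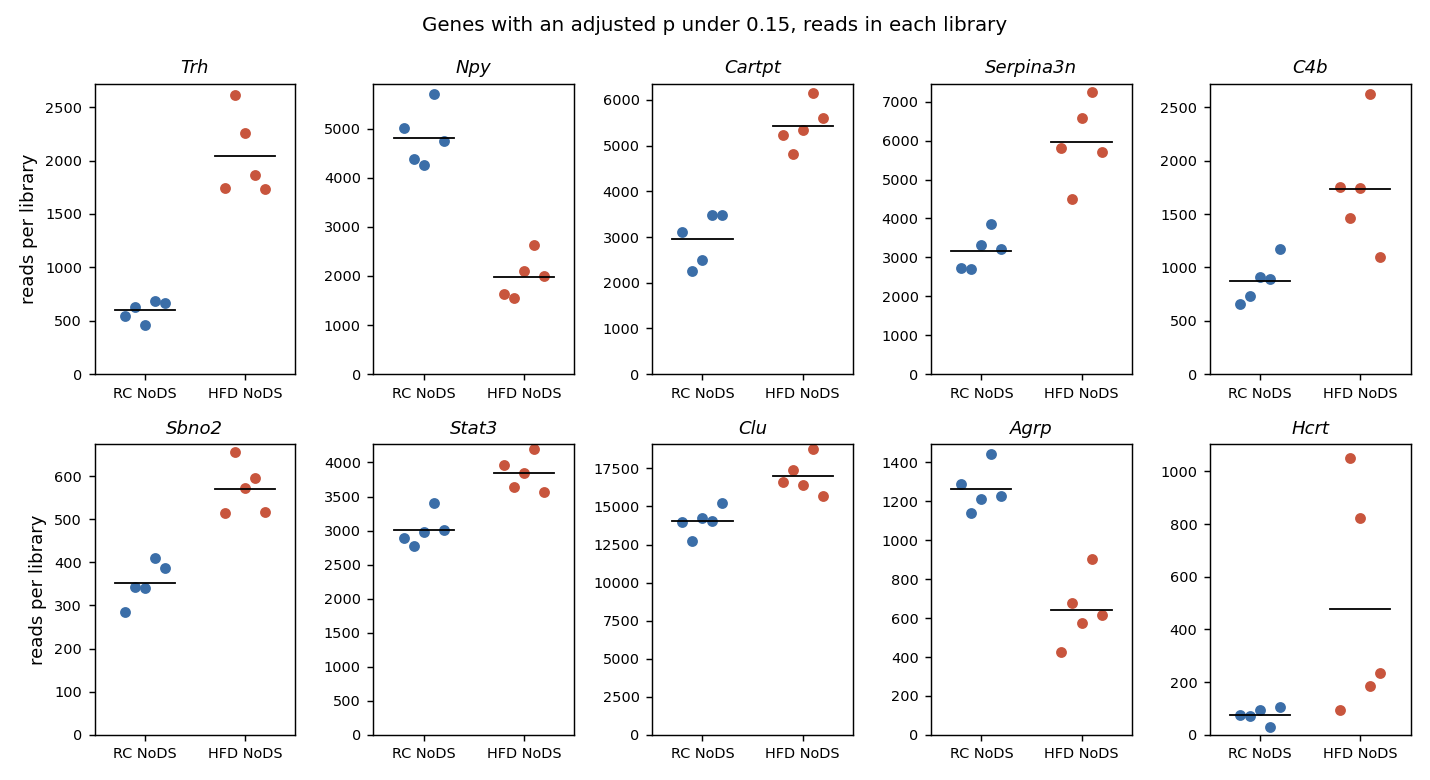
Reads per library (vertical axes, starting at 0) of the 10 genes with an adjusted p under 0.15, for 5 RC NoDS libraries (blue) and 5 HFD NoDS libraries (red), with the mean of each group as a line. The groups are fully apart in all panels but those of C4b and Hcrt, and the HFD NoDS libraries are most spread out for Hcrt, from 93 to 1051 reads.

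Most of the transcriptome lay close to no difference. The median log2 fold change over all genes tested was 0.01, the median size of a fold change in either direction was 0.11 on the log2 scale, and 225 genes differed by more than 1.5-fold. Slightly more genes were higher than lower in HFD NoDS, 6587 against 6181, or 51.6% higher. At an unadjusted p under 0.05 stood 946 genes (7.41%), of which 490 were higher and 456 lower. This count leaned on single libraries, and was 528 without RC NoDS replicate 1, 528 without RC NoDS replicate 2, 485 without HFD NoDS replicate 20 and 1457 without RC NoDS replicate 6. It was lowest, at 336, with library complexity (described below) as a covariate. Every HFD NoDS library lay above every RC NoDS library in scaled reads for 71 genes (0.556%) and below for 52 genes (0.407%), which is 123 genes (0.963%) in either direction. Of the 10 called genes, 8 were among them. The shares over all genes tested in this paragraph also stand beside the counts of list members below.

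Abundant genes tended to be higher in HFD NoDS. Of 523 genes averaging 5000 or more reads, 66.3% were higher, against 54.3% of the 3642 genes averaging 1000 to 5000 reads and 49.2% of the 5878 genes averaging 200 to 1000. Among the most abundant genes, 4 were fully above RC NoDS and 0 fully below, and 54 were higher and 17 lower at an unadjusted p under 0.05. Of the 2725 genes averaging 50 to 200 reads none was called by edgeR, 59 were higher and 47 lower at an unadjusted p under 0.05, and the median SE of their log2 fold changes was 0.288, against 0.0662 in the most abundant genes. Differences in rarely read genes therefore had to be larger to be called.

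**Figure D2:**
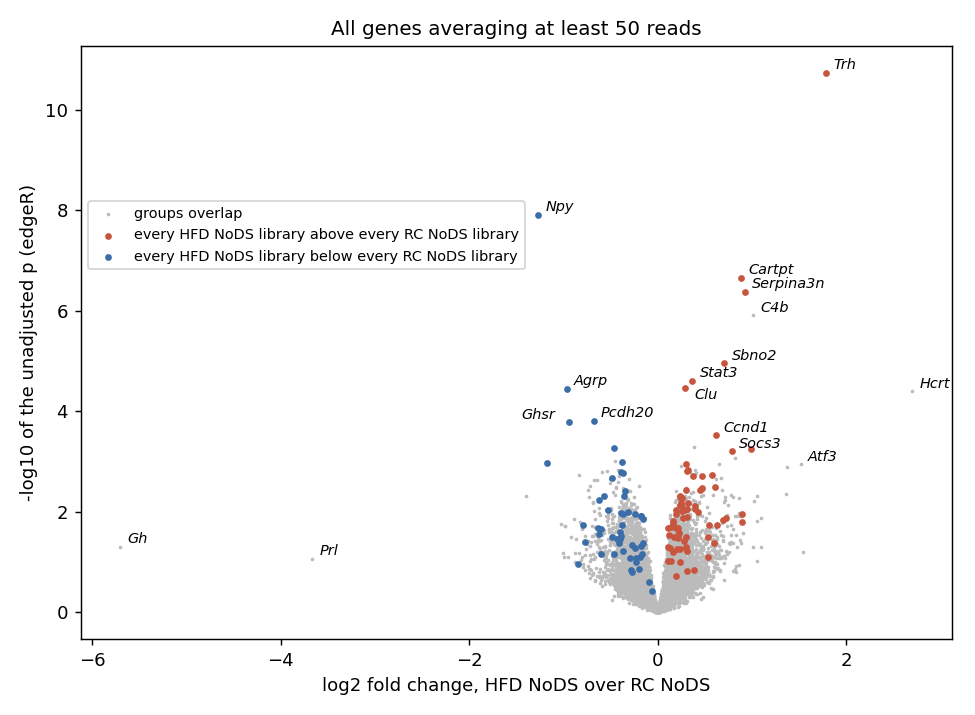
The log2 fold change of each of 12768 genes (horizontal axis) against the unadjusted p of edgeR's test on a −log10 scale (vertical axis), with genes fully higher in HFD NoDS in red and fully lower in blue. Trh and Npy are farthest from the bulk of genes, and Gh and Prl lie far to the left with p-values near those of the bulk.

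Libraries of the groups also differed in how many rarely read genes they missed. A higher share missed is called lower library complexity here. How many distinct RNA molecules were behind the reads was not measured. Of 3116 genes averaging 5 to 50 reads, 1.12%, 3.63%, 2.34%, 7.22% and 1.80% had a count of 0 in the RC NoDS libraries and 16.2%, 32.9%, 14.6%, 9.88% and 7.70% in the HFD NoDS libraries, in the order of replicates given above. HFD NoDS replicate 20 missed the most, and every HFD NoDS library missed more than every RC NoDS library. The means were 3.22 ± 2.42% (SD, n = 5) and 16.3 ± 9.93% (exact two-sided permutation p = 0.00794, the smallest that 5 against 5 libraries can give, and 0.0397 adjusted over the 5 library measures compared). Earlier results of these data had shown that libraries differ in this share, so the p is not that of a fresh test. Since the groups were fully apart in this share, diet and this property of the libraries cannot be told apart by design. A fit with this share as a covariate called 6 genes, all among the 10, which were Trh, Npy, Cartpt, Serpina3n, C4b and Agrp. RC NoDS replicate 5 and HFD NoDS replicate 24 came closest to each other, at 7.22% and 7.70%, and their log2 ratios (HFD over RC, without replication) are given below with the called genes.

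Among peptide genes known from the arcuate feeding circuit, the orexigenic Npy and Agrp fell and Cartpt rose. The punches held several nuclei, so these values do not show which nucleus the reads came from. Npy, a potent stimulant of food intake, had 5015, 4378, 4258, 5713 and 4745 reads in the RC NoDS libraries and 1639, 1551, 2103, 2638 and 2006 in the HFD NoDS libraries. The groups were far apart, with the lowest RC NoDS library well above HFD NoDS replicate 23, the highest of its group. HFD NoDS had 0.417 times the reads of RC NoDS (log2 fold change −1.26, SE 0.160, edgeR adjusted p = 7.79e-05), and the log2 ratio of the closest libraries was −1.53. Fewer cells of a type and less RNA per cell cannot be told apart in such bulk tissue, here or below.

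Agrp, made by the same neurons and an antagonist at melanocortin receptors, had 1289, 1139, 1212, 1442 and 1230 reads in RC NoDS and 426, 678, 574, 902 and 616 in HFD NoDS. The RC NoDS libraries were close together, and HFD NoDS replicate 23 came nearest to them, as it did for Npy. The log2 fold change was −0.97 (SE 0.197, edgeR adjusted p = 0.0507). Agrp was not called without RC NoDS replicate 1 (edgeR adjusted p = 0.166), RC NoDS replicate 5 (0.243), HFD NoDS replicate 19 (0.231), HFD NoDS replicate 21 (0.226) or HFD NoDS replicate 24 (0.155). Its fold change without any of these stayed between −0.96 and −0.85, and over all 21 alternatives the adjusted p ran from 0.00845 to 0.99988. Between the closest libraries the log2 ratio was −1.24.

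Cartpt, whose peptide products reduce food intake, had 3110, 2266, 2490, 3477 and 3486 reads in RC NoDS and 5221, 4823, 5332, 6161 and 5593 in HFD NoDS. All HFD NoDS libraries were higher, and replicate 20 came nearest to RC NoDS. The log2 fold change was 0.89 (SE 0.131, edgeR adjusted p = 9.30e-04), 0.67 between the closest libraries. Pomc, the precursor of the melanocortins and a partner of Cartpt in many arcuate neurons, had 6464, 5012, 6696, 8063 and 9562 reads in RC NoDS and 7815, 10670, 8235, 11836 and 7847 in HFD NoDS. Its groups overlapped, since RC NoDS replicates 5 and 6 reached into the range of HFD NoDS. It was not called (log2 fold change 0.39, edgeR adjusted p = 0.657), and a p that misses the threshold does not show that its levels were alike. The 4 feeding peptides together summed to 16209 ± 2659 reads (SD, n = 5) in RC NoDS and 17333 ± 2530 in HFD NoDS.

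Trh, which encodes thyrotropin-releasing hormone, was the gene with the smallest p of all. It had 543, 632, 464, 683 and 668 reads in RC NoDS and 1741, 2613, 2258, 1863 and 1737 in HFD NoDS. The lowest HFD NoDS library was far above the highest RC NoDS library. Trh rose 3.46-fold (log2 fold change 1.79, SE 0.167, edgeR adjusted p = 2.36e-07), and the log2 ratio of the closest libraries was 1.33. It stood alone in its list. The other 5 tested peptides of the paraventricular nucleus and thyroid axis (Avp, Oxt, Nts, Penk and Pdyn) had log2 fold changes from −0.11 to 0.17, and Crh did not pass the filter. Among 9 tested genes of thyroid hormone handling, such as the deiodinase Dio2 and the receptors Thra and Thrb, 0 were called and 0 had an unadjusted p under 0.05. Reads of Trhr, the receptor of the hormone, were few, from 63 to 128 in RC NoDS and from 0 to 78 in HFD NoDS.

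Hcrt, the orexin precursor and a marker of the lateral hypothalamus, was read 75, 70, 94, 28 and 105 times in RC NoDS and 93, 1051, 823, 187 and 234 times in HFD NoDS. HFD NoDS replicates 20 and 21 were several times above the others of their group, and replicate 19 lay within the range of RC NoDS. Hcrt was called (log2 fold change 2.71, SE 0.557, edgeR adjusted p = 0.0513), but not without RC NoDS replicate 1 (adjusted p = 0.174), RC NoDS replicate 2 (0.244), RC NoDS replicate 5 (0.258), HFD NoDS replicate 20 (0.289) or HFD NoDS replicate 21 (0.226). Neither limma-voom on all libraries (0.642) nor robust dispersion (0.570) called it. Its log2 fold change was 2.17 without HFD NoDS replicate 20, 2.43 without replicate 21 and 1.503 without the 3 HFD NoDS libraries of lowest complexity, an alternative chosen after seeing the data. The log2 ratio of the closest libraries was 3.05, and over its 21 alternatives the adjusted p ran from 0.0113 to 0.99988. The paper, by contrast, reported Hcrt as similar in all its diet groups, by RNA-seq and by RT-qPCR of sequenced and of other tissue. Pmch, the peptide of another set of lateral hypothalamic neurons, had 928, 1757, 602, 411 and 273 reads in RC NoDS and 585, 1293, 1190, 566 and 1769 in HFD NoDS. It was high in RC NoDS replicate 2 and in HFD NoDS replicates 20, 21 and 24, and its groups overlapped. The 4 markers of the lateral hypothalamus (Hcrt, Pmch, Nptx2 and Lhx9) summed to 2588, 3591, 2866, 2018 and 1999 reads in RC NoDS and 2520, 4477, 3423, 2283 and 3627 in HFD NoDS. Nptx2, which is also on the list for the ventromedial nucleus, was the most abundant, none of the 4 was at 0 in a whole group, and 2 of the 3 tested were higher in HFD NoDS. What a shift of the punch towards the lateral hypothalamus contributed to Hcrt was not tested.

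Of 21 tested receptors for feeding hormones and peptides, 0 were called by edgeR with all libraries in the fit, and 4 had an unadjusted p under 0.05. DESeq2, and edgeR fitted to the 10 libraries alone, each called 1 of them, Ghsr. The median log2 fold change of the list was −0.01, against 0.01 over all genes, and changed sign in 5 alternatives. In HFD NoDS, 2 members were fully lower. Over all genes tested, 0.407% were fully lower and 7.41% had an unadjusted p under 0.05. Ghsr, the receptor of the stomach hormone ghrelin, had 300, 336, 323, 527 and 341 reads in RC NoDS and 161, 173, 158, 217 and 232 in HFD NoDS. For Ghsr, RC NoDS replicate 5 stood above the rest, and every RC NoDS library was above every HFD NoDS library. Its log2 fold change was −0.94 (SE 0.217) with an edgeR adjusted p of 0.175, while DESeq2 gave an adjusted p of 0.0227 and edgeR on the 10 libraries alone 0.136, over a range of 0.0227 to 0.99988 in its 21 alternatives. Npy2r, an autoreceptor for Npy, had 1029, 916, 883, 974 and 878 reads in RC NoDS and 687, 704, 842, 771 and 708 in HFD NoDS. HFD NoDS replicate 21 came closest to the RC NoDS libraries without reaching them (log2 fold change −0.32, edgeR adjusted p = 0.640). Mc3r, a melanocortin receptor, and Crhr1, a receptor for corticotropin-releasing hormone, had log2 fold changes of −0.40 and 0.49 with overlapping groups. Lepr, the leptin receptor, had 126 to 250 reads in RC NoDS and 100 to 214 in HFD NoDS.

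Of 13 tested peptides of other hypothalamic neurons, 0 were called by edgeR and 1 had an unadjusted p under 0.05. This was Gal (galanin), with 1248, 1220, 1158, 1567 and 1397 reads in RC NoDS and 1809, 1402, 2061, 1976 and 1817 in HFD NoDS. Only HFD NoDS replicate 20 fell within the RC NoDS range (log2 fold change 0.48, edgeR adjusted p = 0.640).

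Serpina3n, a secreted protease inhibitor that is strongly made by reactive astrocytes, had 2740, 2696, 3326, 3859 and 3206 reads in RC NoDS and 5817, 4510, 6582, 7239 and 5701 in HFD NoDS. Even HFD NoDS replicate 20, the lowest of its group, was above RC NoDS replicate 5, the highest of the other. It rose by 0.93 on the log2 scale (SE 0.142, edgeR adjusted p = 0.00135), and by 0.55 between the closest libraries. Serpina3n is 1 of a cluster of near copies on chromosome 12, the others of which averaged at most 35.6 reads in HFD NoDS, and how reads that match several of them were counted is not known.

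C4b (chromosome 17 from 34865325 to 34880827) encodes complement component 4, a protein that tags targets for removal. It was read 661, 730, 907, 889 and 1171 times in RC NoDS and 1751, 1463, 1745, 2625 and 1100 times in HFD NoDS. HFD NoDS replicate 23 was highest, and HFD NoDS replicate 24 lay within the RC NoDS range, below replicate 6. C4b rose 2.01-fold (log2 fold change 1.01, SE 0.165, edgeR adjusted p = 0.00316), and the log2 ratio of the closest libraries, one of which was replicate 24, was 0.29. Its near copy C4a averaged 70.8 reads in RC NoDS and 57.4 in HFD NoDS, and how the counting divided reads between them is not known.

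Clu, a secreted chaperone that also carries lipid and restrains complement, had 13953, 12745, 14244, 14065 and 15255 reads in RC NoDS and 16637, 17403, 16397, 18773 and 15716 in HFD NoDS. The groups did not overlap, though RC NoDS replicate 6 and HFD NoDS replicate 24 were close. Its rise was small (log2 fold change 0.29, SE 0.0594, edgeR adjusted p = 0.0507), and the log2 ratio of the closest libraries was 0.14. Clu was not called without RC NoDS replicate 1 (edgeR adjusted p = 0.174), RC NoDS replicate 2 (0.284), HFD NoDS replicate 20 (0.158) or HFD NoDS replicate 23 (0.260), within a range of 0.00459 to 0.99988 over its alternatives. Of 13 tested complement components, 10 were higher and 3 lower in HFD NoDS, 2 were called (C4b and Clu) and the median log2 fold change was 0.27, which was 0.13 with the complexity covariate. Over all genes tested, 51.6% were higher and 0.0783% called. C1qa and C1qb, subunits of the initiating complex made by microglia, had log2 fold changes of 0.30 and 0.27 with overlapping groups.

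Stat3, the transcription factor that carries the signals of leptin and of the interleukin-6 family, had 2888, 2776, 2973, 3403 and 3010 reads in RC NoDS and 3967, 3636, 3839, 4195 and 3571 in HFD NoDS. All HFD NoDS libraries were above all RC NoDS libraries, of which replicate 5 was the highest. The log2 fold change was 0.37 (SE 0.0734, edgeR adjusted p = 0.0454), but only 0.05 between the closest libraries, RC NoDS replicate 5 being one. Stat3 was not called without RC NoDS replicate 1 (edgeR adjusted p = 0.174), RC NoDS replicate 2 (0.244), HFD NoDS replicate 19 (0.160) or HFD NoDS replicate 23 (0.217), within a range of 0.00184 to 0.99988 over its alternatives. Stat5a overlaps its position on the opposite strand and averaged 189 reads in RC NoDS and 204 in HFD NoDS.

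Sbno2, a nuclear protein that is known to be induced downstream of Stat3, had 286, 342, 340, 410 and 387 reads in RC NoDS and 514, 655, 572, 595 and 516 in HFD NoDS. Every HFD NoDS library was higher than RC NoDS replicate 5, the highest of its group (log2 fold change 0.71, SE 0.133, edgeR adjusted p = 0.0237). Between the closest libraries its log2 ratio was 0.32. Without RC NoDS replicate 1 it was 0.64 and not called (edgeR adjusted p = 0.166), within a range of 6.16e-04 to 0.99988 over the alternatives. Socs3, an inhibitor of leptin signalling that Stat3 switches on, had 145, 183, 169, 192 and 241 reads in RC NoDS and 346, 260, 320, 381 and 280 in HFD NoDS. The groups were apart, with RC NoDS replicate 6 close to HFD NoDS replicate 20. Its log2 fold change was 0.79 (SE 0.204) with an edgeR adjusted p of 0.468, and it was called by DESeq2 (adjusted p = 0.128, the lowest of a range up to 0.99988).

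Members upstream of Stat3 were mixed. Osmr, a receptor subunit for oncostatin M, was read 30, 38, 29, 25 and 26 times in RC NoDS and 65, 14, 52, 103 and 64 times in HFD NoDS. In HFD NoDS replicate 20 it was below all RC NoDS libraries, and in the other 4 above all of them (log2 fold change 1.02, edgeR adjusted p = 0.640). Jak2, a kinase that phosphorylates Stat3, had 923, 936, 824, 749 and 737 reads in RC NoDS and 540, 476, 539, 768 and 715 in HFD NoDS, where only replicate 23 lay within the RC NoDS range (log2 fold change −0.44, edgeR adjusted p = 0.640). Of the 22 tested genes of leptin and JAK-STAT signalling, 14 were higher and 8 lower, 1 was called (Stat3) and the median log2 fold change was 0.06, which was below 0 without RC NoDS replicate 1. Of 18 tested acute-phase genes and Stat3 targets, 13 were higher and 5 lower, 2 were called (Sbno2 and Stat3), 3 were fully higher, 6 had an unadjusted p under 0.05 and the median was 0.12, within a range of 0.0072 to 0.25 over the alternatives. Over all genes tested, 51.6% were higher, 0.0783% called, 0.556% fully higher and 7.41% at an unadjusted p under 0.05, and the median was 0.01.

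Gfap, the intermediate filament of reactive astrocytes, had 3341, 2891, 3903, 3645 and 4393 reads in RC NoDS and 6183, 8291, 4570, 8797 and 3807 in HFD NoDS. HFD NoDS replicates 20 and 23 were highest and replicate 24 lay within the RC NoDS range. The log2 fold change was 0.82 with an edgeR adjusted p of 0.601, and it was called in 1 of 21 alternatives, without HFD NoDS replicate 24 (0.96, adjusted p = 0.142, with up to 0.99988 in others). Over all genes tested, 51.6% were higher, 0.0783% were called and 7.41% had an unadjusted p under 0.05. Of 23 tested reactive astrocyte genes, 19 were higher and 4 lower, Serpina3n alone was called, and the median log2 fold change was 0.20. That median was 0.09 without HFD NoDS replicate 23, 0.09 without RC NoDS replicate 5 and 0.31 without RC NoDS replicate 6. Of 10 general astrocyte markers, 6 were higher and 4 lower with a median of 0.01, which changed sign in 9 alternatives, and they summed to 47582 ± 2708 reads (SD, n = 5) in RC NoDS and 48108 ± 3474 in HFD NoDS, with Slc1a2 the most abundant. Of 16 tested genes of toll-like receptors and NF-kB, 10 were higher and 6 lower (median 0.06, but −0.05 with the complexity covariate), with 0 called by edgeR and 1 at an unadjusted p under 0.05. Of 24 tested interferon-stimulated genes, 16 were higher and 8 lower with 0 called by edgeR, and the 2 with an unadjusted p under 0.05 were the histocompatibility genes H2-K1 and H2-D1, with log2 fold changes of 0.43 and 0.35. H2-K1 was called without RC NoDS replicate 6 (0.63, edgeR adjusted p = 0.149), in which it had 1997 reads, and its adjusted p was up to 0.99988 in other alternatives.

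**Figure D3:**
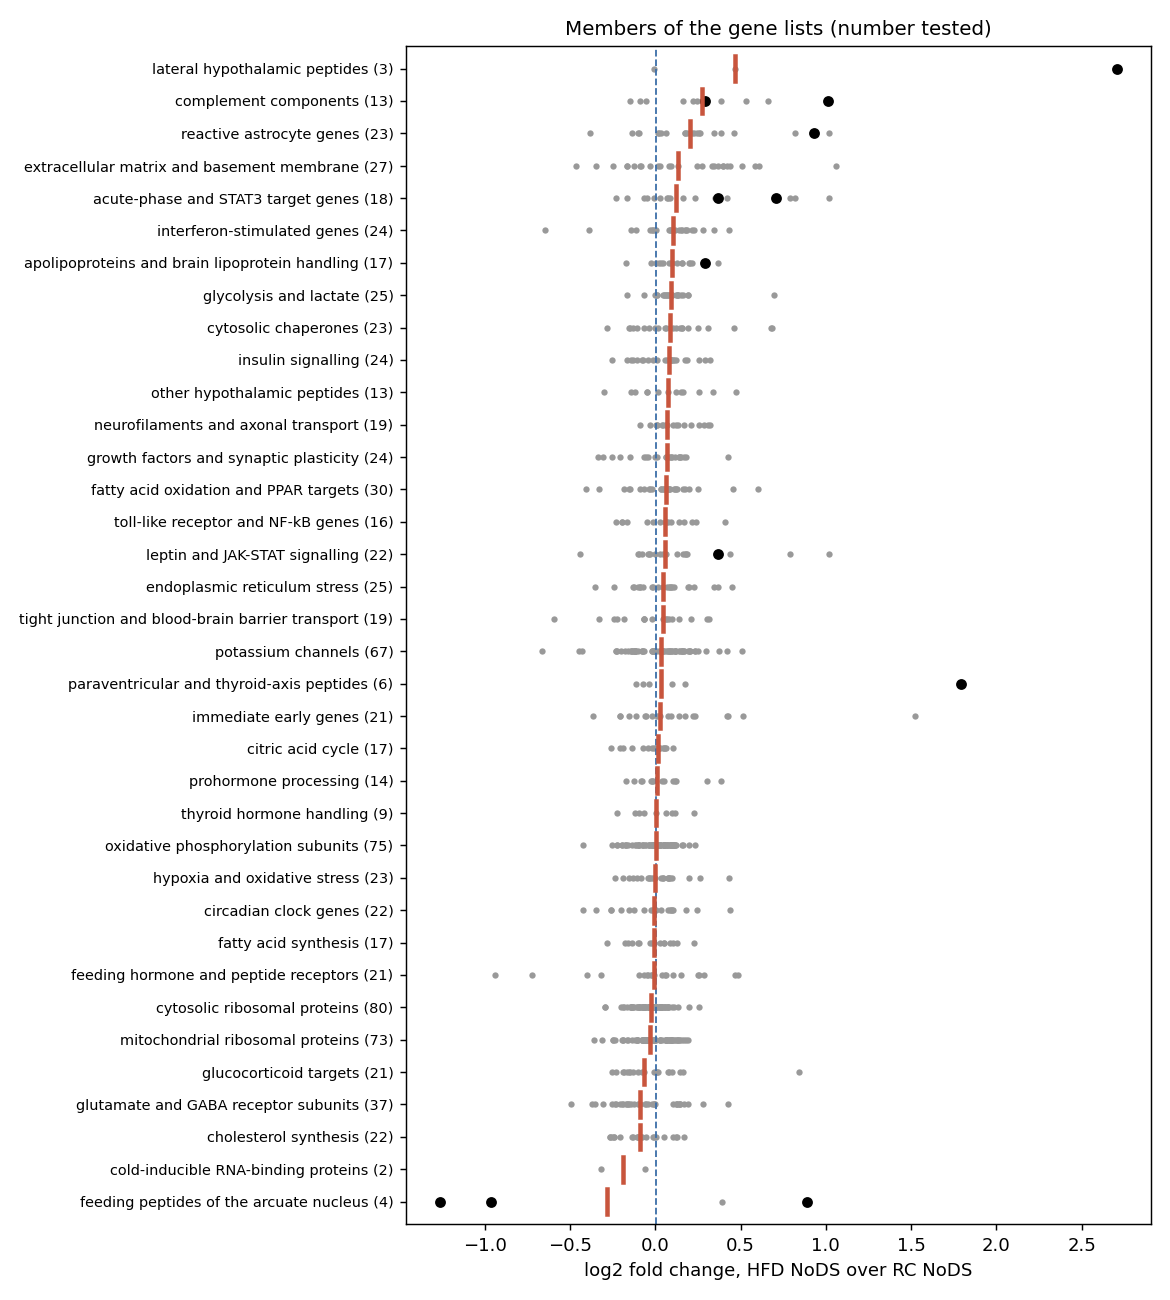
The log2 fold change, HFD NoDS over RC NoDS, of each tested member (points, black where called) of 36 gene lists (vertical axis, number of members tested in brackets), with each list's median as a red bar. Complement components and reactive astrocyte genes sit mostly right of 0, and called genes of opposite direction share the list of arcuate feeding peptides.

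Since Stat3 and Sbno2 rose, the start regions of the acute-phase genes and Stat3 targets were searched for the letters TTCNNNGAA, the form of site that Stat3 dimers are known to prefer. The motif is its own reverse complement, so a match counts on both strands. Windows were RefSeq sequences of GRCm38.p6, from 250 bases before to 50 bases after each gene start. The motif was in 2726 of 32851 windows (8.30%), and in at least 1 window of 740 of the 9106 tested genes with an entry (8.13%). Of 15 members of the list with an entry, 5 held it (33.3%), namely Gfap, Ifitm3, Sbno2, Socs3 and Tnfrsf1a. The list was made in part of known Stat3 targets, so a high share follows from its making and is no result about diet. Of reactive astrocyte genes with an entry, 3 of 20 held the motif (15%), and of complement components 0 of 6. Of the 7 called genes with an entry, Sbno2 alone held it, in 2 of its 3 windows, which are called first and second start below. The stretches of Gfap, Sbno2 and Socs3 are shown, as these members were described above, with the motif in capitals and 20 bases on each side, 5′ to 3′ on the strand of the gene, which is the minus strand in each. They lie at chr11:102897174-102897222 (Gfap), chr10:80102700-80102748 and chr10:80101183-80101231 (Sbno2, first and second) and chr11:117969492-117969540 (Socs3). A match describes these letters only and is not evidence of binding.
Gfap: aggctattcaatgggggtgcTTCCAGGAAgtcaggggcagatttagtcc
Sbno2, first start: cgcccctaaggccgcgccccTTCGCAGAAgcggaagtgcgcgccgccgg
Sbno2, second start: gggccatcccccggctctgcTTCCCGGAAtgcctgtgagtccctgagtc
Socs3: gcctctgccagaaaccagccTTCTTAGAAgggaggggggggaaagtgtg

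Markers of oligodendrocytes, the cells that form myelin, were higher in HFD NoDS in 10 of 10 cases. None was called by edgeR, all 10 had an unadjusted p under 0.05, and the median log2 fold change was 0.54, from 0.38 to 0.72. Over all genes tested, 51.6% were higher and 7.41% had such a p. Mbp, a main protein of myelin and the most abundant of the list, had 17025, 19605, 25202, 18439 and 28344 reads in RC NoDS and 28710, 52809, 25224, 48135 and 21537 in HFD NoDS. HFD NoDS replicates 20 and 23 were far above every RC NoDS library, and the other 3 lay within the RC NoDS range or just above it. The list summed to 39920, 46248, 57512, 40291 and 59067 reads in RC NoDS and 61123, 102868, 55629, 100455 and 48036 in HFD NoDS, with no marker at 0. Without HFD NoDS replicate 20 the median was 0.40 and 4 markers had an unadjusted p under 0.05, and without HFD NoDS replicate 23 these were 0.40 and 3. Without RC NoDS replicate 1 or 5 the median was 0.49 and 4 or 5 markers had such a p. Gfap, Clu and Sbno2 were also highest in replicates 20 and 23, and C4b, Serpina3n and Stat3 in replicate 23. Whether these genes moved with the content of oligodendrocytes in the punches was not tested. Of 6 markers of oligodendrocyte precursors, 6 were higher with a median of 0.15, which was 0.04 with the complexity covariate, and 1 had an unadjusted p under 0.05 (Gpr17).

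Of 10 microglial markers, all were higher in HFD NoDS, as were 51.6% of all genes tested. Their median was 0.14, and 3 stood at an unadjusted p under 0.05 (7.41% of all genes tested did). This number was 1 without RC NoDS replicate 1, RC NoDS replicate 2 or HFD NoDS replicate 20, and 7 of 10 were higher without HFD NoDS replicate 23. They summed to 7246, 7512, 7685, 7138 and 8066 reads in RC NoDS and 7789, 8493, 8268, 9622 and 7991 in HFD NoDS. Replicate 23 was again the highest, and HFD NoDS replicates 19 and 24 overlapped the RC NoDS range. Csf1r, the receptor that microglia need for survival and the most abundant of the list, had 1358, 1515, 1673, 1440 and 1611 reads in RC NoDS and 1713, 1721, 1806, 2138 and 1620 in HFD NoDS. All but HFD NoDS replicate 24 were above RC NoDS (log2 fold change 0.26, edgeR adjusted p = 0.640). No microglial marker was at 0, and the part of microglia in the values of C1qa and C1qb was not tested.

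Markers of blood went the other way. Of 5 tested, 5 were lower in HFD NoDS with a median of −0.64, with 0 called by edgeR and 1 (Hbb-b1, a beta globin) at an unadjusted p under 0.05. This number was 3 without HFD NoDS replicate 20 and 0 without RC NoDS replicate 2, 3 or 5 or HFD NoDS replicate 19, 21 or 24. The list summed to 3482, 4547, 4317, 3727 and 3348 reads in RC NoDS and 1578, 4356, 1550, 3174 and 2052 in HFD NoDS, with Hbb-b1 the most abundant and none of the markers at 0. HFD NoDS replicate 20 matched RC NoDS and the other 4 were below all RC NoDS libraries. Globin genes are near copies of each other, so their separate counts are uncertain. Markers of neurons (5 higher and 4 lower of 9), endothelial cells (7 and 3 of 10), tanycytes (6 and 4 of 10) and ependymal cells (5 and 3 of 8) had medians between 0.01 and 0.07, of which that of tanycytes changed sign in 5 alternatives, among them no TMM scaling, that of ependymal cells with the complexity covariate and that of endothelial cells without HFD NoDS replicate 20. Of 10 tested markers of pericytes and fibroblasts, 8 were higher with a median of 0.21, which was 0.0057 with the complexity covariate and below 0 without HFD NoDS replicate 20. Of 3 tested markers of choroid plexus, with Clic6 the most abundant, 3 were lower with a median of −0.34, or −0.10 with the covariate.

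**Figure D4:**
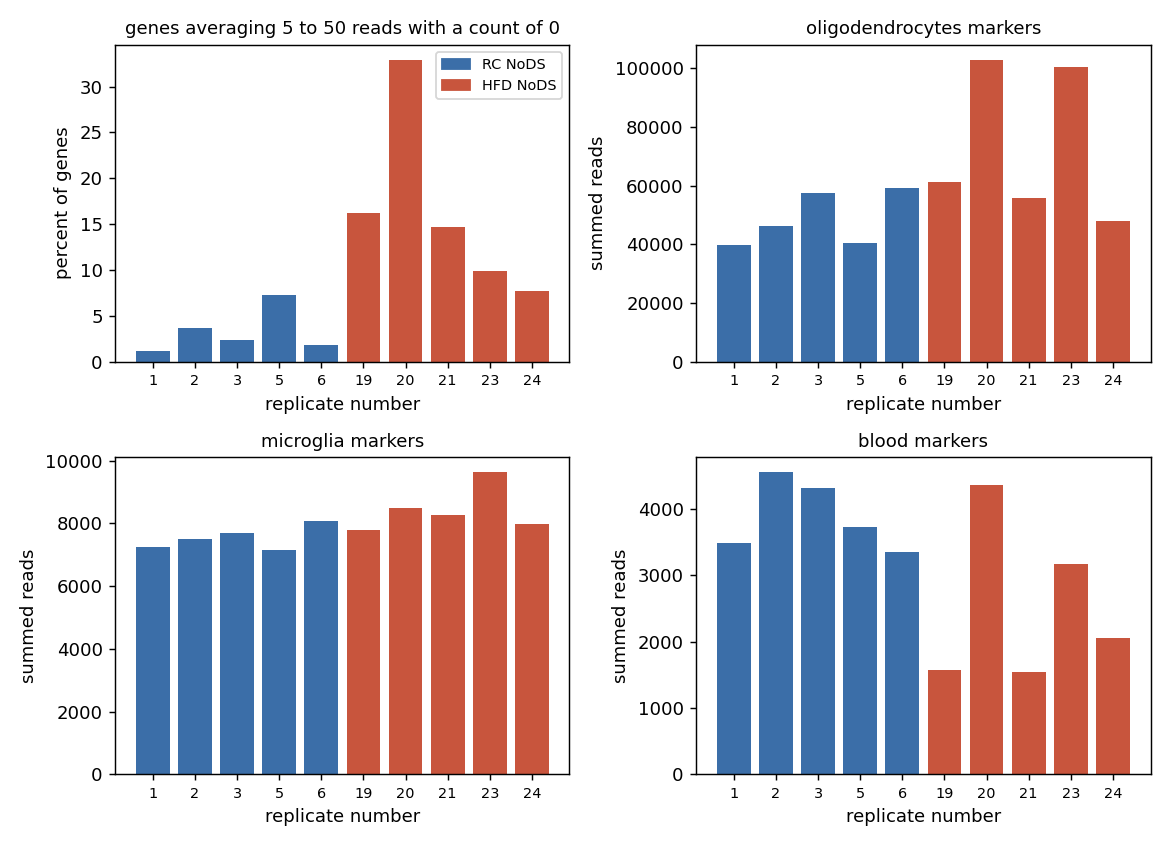
Bars for each of the 10 libraries (replicate number on the horizontal axis), showing the percent of 3116 rarely read genes with a count of 0 and the summed reads of 10 oligodendrocyte, 10 microglial and 6 blood markers. HFD NoDS replicate 20 is highest for missed genes, HFD NoDS replicates 20 and 23 are highest for oligodendrocyte markers, and 4 of 5 HFD NoDS libraries are below all RC NoDS libraries for blood markers.

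Among genes of metabolism, those of glycolysis leaned towards HFD NoDS. Of 25 tested members, 22 were higher in HFD NoDS and 8 had an unadjusted p under 0.05, with 0 called by edgeR, and the list median was 0.09, from 0.05 to 0.12 over the alternatives. Over all genes tested, 51.6% were higher and 7.41% had such a p. Reads of the list summed to 175750 ± 6309 reads (SD, n = 5) in RC NoDS and 187279 ± 10414 in HFD NoDS. Of genes averaging 5000 or more reads, 66.3% were higher and 13.6% had an unadjusted p under 0.05. What abundance contributed to the lean of this list was not tested. Pfkl, the liver-type subunit of phosphofructokinase, had the smallest p of the list (log2 fold change 0.19, edgeR adjusted p = 0.640, with 3035 to 3591 reads in RC NoDS and 3579 to 3965 in HFD NoDS). Cholesterol synthesis leaned the other way, with 16 of 22 lower, a median of −0.09 and 3 at an unadjusted p under 0.05. Insig1, the sterol-regulated brake on this pathway, was read 1042, 994, 1007, 935 and 889 times in RC NoDS and 773, 608, 787, 869 and 965 times in HFD NoDS. HFD NoDS replicate 24 lay within the RC NoDS range and the groups overlapped (log2 fold change −0.27, edgeR adjusted p = 0.640). Of 30 tested genes of fatty acid oxidation, 20 were higher and 10 lower with a median of 0.06, and 0 were called by edgeR. The peroxisomal enzyme Ehhadh was fully higher (0.60) while the electron carrier subunit Etfa was fully lower (−0.41, and −0.46 to −0.14 over the alternatives). Over all genes tested, 0.556% were fully higher and 0.407% fully lower. Of 17 apolipoproteins and genes of lipoprotein handling, 15 were higher with a median of 0.10, and Clu was the only one called. The shares over all genes tested were 51.6% higher and 0.0783% called. Apoe, the main lipid carrier of the brain, had 37188 to 53037 reads in RC NoDS and 43901 to 58948 in HFD NoDS.

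Oxidative phosphorylation (75 tested, 40 higher) and the citric acid cycle (17 tested, 9 higher) had medians of 0.01, which changed sign in 6 and 8 alternatives, among them no TMM scaling. Fatty acid synthesis (17 tested, 7 higher) had a median of −0.01, which changed sign in 2. Of 80 cytosolic and 73 mitochondrial ribosomal proteins tested, 54 and 44 were lower, each with a median of −0.03, which changed sign in 2 and 1 alternatives. None of these 5 lists had a gene called by edgeR. An unadjusted p under 0.05 was given to 8 members in oxidative phosphorylation, 2 in fatty acid synthesis, 10 in cytosolic ribosomes and 0 in the others, where the share over all genes tested was 7.41% and that over genes averaging 1000 to 5000 reads 9.83%. Insulin signalling had 15 of 24 higher, a median of 0.08 and 1 at an unadjusted p under 0.05, the transcription factor Foxo1, with a log2 fold change of −0.25. The median of this list was 0.01 with the complexity covariate and −0.02 without the 3 HFD NoDS libraries of lowest complexity.

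Among stress genes, 15 of 23 cytosolic chaperones were higher with a median of 0.08, 0 called by edgeR and 5 at an unadjusted p under 0.05. Hspa1b, an inducible heat shock protein, had 158, 179, 156, 207 and 281 reads in RC NoDS and 265, 395, 307, 342 and 241 in HFD NoDS. RC NoDS replicate 6 lay above HFD NoDS replicates 19 and 24, and reads may be shared with its near copy Hspa1a (log2 fold change 0.68, edgeR adjusted p = 0.607). Cryab, a small heat shock protein abundant in glia, had 0.69, with its highest library again HFD NoDS replicate 20 at 2682 reads. Of 25 tested genes of endoplasmic reticulum stress, 15 were higher with a median of 0.05, and 2 were fully higher (1 of them Ppp1r15a, a phosphatase subunit that relieves blocked translation, 0.45). Over all genes tested, 51.6% were higher, 0.556% fully higher and 7.41% at an unadjusted p under 0.05. Immediate early genes had 13 of 21 higher and a median of 0.03, which was −0.09 with the complexity covariate. Atf3, a stress-induced factor of this list, was read 41, 20, 20, 50 and 30 times in RC NoDS and 100, 52, 36, 166 and 105 times in HFD NoDS. Only HFD NoDS replicate 21 lay within the RC NoDS range, and the log2 fold change was 1.52 (edgeR adjusted p = 0.607). Its mean was under 50 reads in each of the other 3 diet groups, so it passed the filter through HFD NoDS. Glucocorticoid targets had 9 of 21 higher and a median of −0.07, which changed sign in 3 alternatives and was −0.22 with the complexity covariate.

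The clock list was balanced, as 10 of 22 were higher with a median of −0.01, which changed sign in 5 alternatives. An unadjusted p under 0.05 was given to 3 members (Bhlhe40, Nfil3 and Arntl), where the share over all genes tested was 7.41%. Arntl, the positive arm of the clock, had 384 to 575 reads in RC NoDS and 317 to 508 in HFD NoDS, and Bhlhe40, a repressor, had 1458, 1543, 1538, 1284 and 1478 in RC NoDS and 1753, 1744, 1684, 1571 and 1771 in HFD NoDS. The Bhlhe40 libraries did not overlap, and the log2 fold changes were −0.35 for Arntl and 0.24 for Bhlhe40. Rbm3, an RNA-binding protein made in the cold, had 837, 982, 1053, 990 and 912 reads in RC NoDS and 726, 827, 776, 716 and 737 in HFD NoDS. The groups were apart in these reads by a narrow gap and overlapped once scaled (log2 fold change −0.32, edgeR adjusted p = 0.640).

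None of the neuronal lists had a gene called by edgeR. Of 19 genes of neurofilaments and axonal transport, 17 were higher with a median of 0.07 (4.9e-04 to 0.16 over the alternatives) and 5 at an unadjusted p under 0.05. Many of them are abundant, and the list summed to a mean of 187846 reads in RC NoDS and 198442 in HFD NoDS. Of all genes averaging 5000 or more reads, 66.3% were higher and 13.6% had an unadjusted p under 0.05. What abundance contributed to the lean of this list was not tested. Kif5a, a kinesin that carries cargo along axons, had 21755, 25455, 28245, 23644 and 28748 reads in RC NoDS and 31800, 36193, 30372, 28882 and 29276 in HFD NoDS, with a narrow gap between RC NoDS replicate 6 and HFD NoDS replicate 23 (log2 fold change 0.31, edgeR adjusted p = 0.607). Of 37 tested subunits of glutamate and GABA receptors, 26 were lower and 11 higher with a median of −0.09, 0 called by edgeR and 6 at an unadjusted p under 0.05. Gabra3, a subunit of the GABA receptor channel, had 2766, 3031, 2482, 2086 and 1823 reads in RC NoDS and 1825, 1389, 2073, 1787 and 2242 in HFD NoDS. RC NoDS replicates 5 and 6 lay within the HFD NoDS range (log2 fold change −0.37, edgeR adjusted p = 0.640). With library complexity as a covariate the median of this list was 0.04, so its direction turned. Of 67 tested potassium channel genes, 38 were higher and 29 lower (median 0.04, which changed sign in 3 alternatives), and Kcnd3, a channel of transient outward current, was 1 of 2 that were fully lower (−0.23). Over all genes tested, 51.6% were higher, 0.407% fully lower and 7.41% at an unadjusted p under 0.05. Prohormone processing (14 tested) had 7 higher and 7 lower.

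Apart from the called genes, the 8 higher and 8 lower genes of smallest p whose groups did not overlap were led by Pcdh20. Pcdh20, a protocadherin of the cell surface, had 992, 920, 1042, 1208 and 801 reads in RC NoDS and 636, 358, 687, 692 and 698 in HFD NoDS. HFD NoDS replicate 20 was far below the rest (log2 fold change −0.68, SE 0.155, edgeR adjusted p = 0.175), and Pcdh20 was called in 4 of 21 alternatives, 1 of them without RC NoDS replicate 6 (−0.75, adjusted p = 0.0845, range 0.0227 to 0.99988). Ccnd1, a cyclin of early cell cycle, had 453, 538, 404, 528 and 609 reads in RC NoDS and 604, 965, 781, 746 and 748 in HFD NoDS. RC NoDS replicate 6 and HFD NoDS replicate 19 met, and were apart only after scaling (log2 fold change 0.62, edgeR adjusted p = 0.294). It was called without RC NoDS replicate 6 (0.70, edgeR adjusted p = 0.149, range 0.0707 to 0.99988). Accn4, a subunit of the acid-sensing ion channel family, had 64, 63, 61, 72 and 89 reads in RC NoDS and 133, 172, 108, 142 and 129 in HFD NoDS. All HFD NoDS libraries were higher (log2 fold change 0.99, edgeR adjusted p = 0.459). Cnga3, a cyclic nucleotide-gated channel, had 76, 87, 91, 152 and 132 reads in RC NoDS and 31, 37, 54, 48 and 66 in HFD NoDS. RC NoDS replicates 5 and 6 were highest, and the log2 fold change was −1.17 (edgeR adjusted p = 0.607). The remaining higher genes were Stmn4 (0.32), Csdc2 (0.30), Sh3yl1 (0.58), Spata2 (0.48) and, named above, Kif5a and Socs3. The remaining lower ones were Lars (−0.46), Agpat5 (−0.38), Ankrd13c (−0.39), Cpne4 (−0.37), Rbm43 (−0.48) and, named above, Ghsr. Between the libraries of closest complexity the log2 ratios of Lars and Agpat5 were only −0.076 and −0.033, while those of Ghsr and Pcdh20 were −1.20 and −0.81.

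The groups that did switch diets share no library with the 10 described, but any comparison of them with RC NoDS would share its 5 controls, so their values stand here side by side only. Ghsr had a median of 208.5 reads (139 to 272, n = 6) after a switch from RC to HFD and 209 (156 to 374, n = 5) after a switch from HFD to RC. For Pcdh20 the medians were 702 (500 to 809) and 688 (552 to 801), and for Socs3 207.5 (192 to 382) and 217 (147 to 231). C4b had a median of 849.5 reads (796 to 964) after the switch to HFD and 1230 (1019 to 1593) after the switch to RC. Stat3 had medians of 3150 (2840 to 3475) and 3051 (2661 to 3213), and Clu of 15369.5 (14412 to 16621) and 15218 (14929 to 17131), in the same order.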

How the data were processed

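Counts of reads per gene were used as the authors deposited them. Per the labels, RNA was selected by polyA and made into stranded libraries, and reads were aligned to mm9 with STAR 2.5.1b (Picard 2.7.1 is also listed). Ribosomal and mitochondrial reads had been taken out, and libraries brought to one depth by re-sampling, with PORT. How their counting used strand and reads with several matches is not stated. Groups and replicate numbers were taken from sample names, and every library was kept.

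Genes averaging 50 or more reads over 21 libraries were scaled by TMM and tested with edgeR 4.0.16 under R 4.3.3 (quasi-likelihood F-test, 2-sided, a mean per diet group), with Benjamini-Hochberg adjustment and a threshold of 0.15. Groups were said not to overlap where reads scaled by TMM did not. Library measures were compared by exact two-sided permutation tests. Gene lists were described by counts and medians, without a test. The fits were tested on simulated data. Figures were drawn with matplotlib 3.10.9 (Python 3.11.15).

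Named genes are those called, the 8 higher and 8 lower with the smallest p among others whose groups did not overlap, up to 3 of smallest p per list, and known partners of these. Genes, lists and the measure of library complexity were chosen with earlier results of these data known. Alternatives were DESeq2 1.42.0, limma-voom (limma 3.58.1), the 10 libraries alone, other scaling, filters and dispersions, complexity as a covariate and each library left out. Symbols of the annotation in use for mm9 were matched to current ones through RefSeq. No molecular identifiers were used, reads are thus not separate molecules, and the spread between libraries, not the number of reads, was taken as the error.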

Additional observations from a re-analysis of the deposited data

Results flagged for a closer look

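In 54 groups of 5 libraries (among them those of the genes called or named for groups that did not overlap), a single library stood apart from the other 4 in 4 cases. Chance alone gives about 1 in 20 in groups that were not selected. These genes were picked from the same data, so that rate does not carry over, and the 4 cases are not read as more than chance gives. HFD NoDS replicate 20 had 3962 reads of Csdc2, an RNA-binding protein, where the next library of its group had 2964. The same replicate had 358 reads of Pcdh20, where the next lowest had 636. HFD NoDS replicate 21 had 391 reads of Sh3yl1, where the next had 283. RC NoDS replicate 5 had 527 reads of Ghsr, where the next had 341. Replicate 20 of HFD NoDS was also the library that missed the most rarely read genes (32.9%).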

How the results depend on the processing

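No paired analysis was possible because the groups compared share no replicate number. The number of genes called was 10, and 17 with DESeq2, 6 with limma-voom on the 10 libraries alone, 6 with library complexity as a covariate and 6 without the 3 HFD NoDS libraries in which over 10% of rarely read genes were missed, an alternative chosen after seeing the data. It ran from 5 (without RC NoDS replicate 1) to 14 (without RC NoDS replicate 6) when single libraries were left out. It was 8 with robust dispersion and 8 with edgeR on the 10 libraries alone, of which 7 were among the 10. Other scaling and a filter of 5 reads gave the same 10, and no filter or limma-voom on all libraries gave 10 of which 9 were shared. The cause of these shifts was not tested. Trh, Npy, Cartpt and Serpina3n were called under each of 21 alternatives, with log2 fold changes of 1.51 to 1.85, −1.39 to −1.05, 0.79 to 0.99 and 0.85 to 1.03. C4b was called in 20 (0.82 to 1.14), Sbno2 in 18, Agrp in 14, Stat3 in 13, Clu in 12 and Hcrt in 10, and none of the 10 changed direction. The difference in the percent of rarely read genes missed was 13.1 points, 21.7 for genes averaging 2 to 20 reads and 5.39 for genes averaging 10 to 100. Lepr changed direction, from −0.09 to 0.10 without the 3 HFD NoDS libraries of lowest complexity, and ran from −0.21 to 0.078 with single libraries left out. Limits are 5 pools a group, a variance between libraries of one group of 10.6 to 42.0 times that of read sampling, and the tie of complexity to diet.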

Other observations

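Reads of pituitary hormone genes varied widely between libraries. Cga, the subunit that several of the hormones share, had 116, 386, 117, 370 and 502 reads in RC NoDS and 0, 271, 282, 577 and 548 in HFD NoDS. Gh, growth hormone, had 2, 4, 0, 0 and 184 reads in RC NoDS and 0, 0, 1, 1 and 1 in HFD NoDS. Prl, prolactin, had 1, 154, 0, 0 and 20 in RC NoDS and 1, 1, 10, 1 and 0 in HFD NoDS. Gh was thus confined to RC NoDS replicate 6 among these 10 libraries, apart from at most 4 reads, and Prl was highest in RC NoDS replicate 2.

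Of 12768 genes tested, 21 differed by more than 2-fold, 14 of them higher and 7 lower in HFD NoDS, and 17 of these were not called. Some, such as Atf3 and Pvalb, passed the filter of 50 reads only narrowly and through the group in which they were high, so the filter has a part in this tally. H2-Q6, a class I histocompatibility gene, had 72, 69, 52, 53 and 108 reads in RC NoDS and 131, 61, 168, 272 and 276 in HFD NoDS. Only HFD NoDS replicate 20 lay within the RC NoDS range, and reads may be shared with its near copy H2-Q7, which averaged 58.4 reads in RC NoDS and 108 in HFD NoDS. Il18, a cytokine, had 139, 109, 108, 47 and 70 reads in RC NoDS and 29, 2, 49, 35 and 62 in HFD NoDS, with RC NoDS replicate 5 within the HFD NoDS range. These genes were named after their values were seen.

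Smoc2, a matrix protein, had 95, 62, 75, 86 and 120 reads in RC NoDS and 108, 296, 167, 160 and 169 in HFD NoDS. Of 27 tested genes of extracellular matrix, 18 were higher, the median was 0.14 (0.0026 with the complexity covariate), and 0 were called by edgeR, 3 having an unadjusted p under 0.05. Tfrc, the transferrin receptor, had 618, 683, 626, 436 and 398 reads in RC NoDS and 390, 219, 361, 430 and 408 in HFD NoDS, and its groups overlapped through RC NoDS replicate 6. Of 19 tested genes of tight junctions and transport at the blood-brain barrier, 10 were higher and 9 lower. Of 23 tested genes of hypoxia and oxidative stress, 11 were higher and 12 lower.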
